A study of Mus musculus with 8 samples.

Results

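Oxidative phosphorylation was described here through 98 protein-coding genes among the 54532 genes of the count table: 13 encoded in the mitochondrial genome and 85 encoded in the nucleus. All were assigned to a complex as subunits except Atp5s, which was kept apart as a factor. They were picked by name, as genes of the mt-Nd, mt-Co, mt-Cytb and mt-Atp series, the Nduf series, Sdha to Sdhd, the Uqcr series, Cox4 to Cox8 and the Atp5 series. RNA came from the cortex of 8-mo-old mice, with 1 library per mouse and 4 mice of each genotype. The control mice were PS19, a tauopathy model in which a mouse prion promoter drives a transgene for P301S mutant human tau (isoform 1N4R). The Adrb1+/m;PS19 mice carried the same tau transgene and 1 copy of the A187V knock-in allele of Adrb1, the beta-1 adrenergic receptor. All mice were of the C57BL/6 strain, were housed alone on a LD 12:12 cycle and, according to the methods, were compared with littermates. The comparison asked whether the Adrb1 mutation changes cortical gene expression on the PS19 background. Mice without the tau transgene were not analysed here.

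The complexes of oxidative phosphorylation sit in the inner mitochondrial membrane. Complexes I to IV pass electrons from NADH and succinate to oxygen, complexes I, III and IV pump protons on the way, and complex V, the ATP synthase, uses the proton gradient to make ATP, on which neuronal firing depends heavily. Complex II is built from nuclear subunits alone, whereas complexes I, III, IV and V join mitochondrially encoded subunits with nuclear subunits that are imported from the cytosol. Mitochondrial mRNAs are cut from long transcripts that cover most of the mitochondrial genome, with tRNAs between them.

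Libraries held between 14653222 and 21223754 counts, and counts of replicate mice scattered beyond sampling noise. Values are given as CPM, counts scaled with TMM factors to a common library size, always in the order m677, m668, m665 and m659 for PS19 mice and m671, m661, m660 and m658 for Adrb1+/m;PS19 mice. Log2 fold changes are Adrb1+/m;PS19 minus PS19 and come with their SE. Adrb1 itself was at 30.7 to 41.2 CPM in the 8 mice, with a log2 fold change of -0.07 ± 0.09, and the counts do not separate its alleles. A gene was said to pass where edgeR's quasi-likelihood test gave an unadjusted p-value under 0.05, which is the study's own selection. No gene passed after Benjamini-Hochberg adjustment in edgeR, where the smallest adjusted p was 0.9996 and 481 genes passed unadjusted, or in DESeq2, where 555 genes passed unadjusted. In edgeR this depended on the filter on low counts: without it 66 of 33614 genes passed after adjustment. Among them were 5 members, namely mt-Nd4l, mt-Co2, mt-Co3, mt-Atp6 and Ndufa12. DESeq2 gave p-values for 33611 genes without that filter, and none passed after adjustment. In tissue samples such as these, fewer cells of a type and less RNA per cell cannot be told apart.

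Several of these genes have near-identical copies elsewhere in the genome, and their sequences are shown first. A stretch of 4663 bases on chromosome 1 (GRCm38, chr1:24611535-24616197, minus strand) holds 7 annotated pseudogenes that copy part of the mitochondrial genome, from the end of mt-Co1 to the first part of mt-Nd4. Over 4149 aligned bases the copies differed from the mitochondrial genes at 7 positions, 6 of them in the mt-Co1 copy. The copies of mt-Co2, mt-Atp6, mt-Co3, mt-Nd4l and mt-Nd4 had no difference. mt-Nd4l, the one mitochondrially encoded gene that passed the test, shows how complete the copy is. Its 297 bases (chrM:9877-10173, plus strand) and the 294 bases of Gm10222 (chr1:24612407-24612700, minus strand) are printed from the reference transcripts, and no base is in capitals because none differs.
mt-Nd4l: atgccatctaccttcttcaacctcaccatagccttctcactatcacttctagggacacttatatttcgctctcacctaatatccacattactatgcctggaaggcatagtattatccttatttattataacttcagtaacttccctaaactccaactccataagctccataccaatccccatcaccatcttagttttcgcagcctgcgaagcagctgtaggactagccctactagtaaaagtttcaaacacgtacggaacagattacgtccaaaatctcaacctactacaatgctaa
Gm10222: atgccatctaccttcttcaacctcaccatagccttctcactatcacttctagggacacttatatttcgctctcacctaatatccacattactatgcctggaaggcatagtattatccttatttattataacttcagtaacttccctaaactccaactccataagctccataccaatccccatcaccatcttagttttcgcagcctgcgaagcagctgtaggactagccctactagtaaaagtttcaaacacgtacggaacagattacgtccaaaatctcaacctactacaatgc

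Ndufa12, the nuclear member that passed with the smallest p, also has a near-identical copy. Its gene lies on chromosome 10 (chr10:94198720-94221443, plus strand), and the processed pseudogene Gm15920 lies on chromosome 5 (chr5:130188395-130188796). The pseudogene matches bases 37 to 438 of the 438-base coding sequence without a gap, with 2 differing bases among 402 (99.5% identity). Bases 126 to 425 of the coding sequence, which hold both differences, are printed beside the matching stretch of the pseudogene. Capitals mark the differing bases, A135G and T414C, written with the base of Ndufa12 first and counted from 1 at its start codon.
Ndufa12: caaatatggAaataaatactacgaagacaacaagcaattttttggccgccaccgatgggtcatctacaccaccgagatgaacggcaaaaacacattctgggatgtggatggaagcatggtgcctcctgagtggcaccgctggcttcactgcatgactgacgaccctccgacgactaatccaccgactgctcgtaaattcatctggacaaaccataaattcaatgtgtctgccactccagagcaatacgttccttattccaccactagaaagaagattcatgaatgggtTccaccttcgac
Gm15920: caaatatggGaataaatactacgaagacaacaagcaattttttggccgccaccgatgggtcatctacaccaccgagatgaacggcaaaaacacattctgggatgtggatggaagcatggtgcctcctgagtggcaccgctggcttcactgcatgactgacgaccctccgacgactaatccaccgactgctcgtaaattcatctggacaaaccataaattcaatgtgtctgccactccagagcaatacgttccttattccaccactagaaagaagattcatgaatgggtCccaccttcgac

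In all, 21 of the 85 nuclear members had at least 1 annotated pseudogene with 95% identity or more over 150 or more bases of its transcript. In Ndufa12 the pseudogene took 32.1% of the counts of both, the highest share among members that had any counts. The strand setting and the treatment of reads that fit several places are not given in the sources used here, so counts of these genes and of the mitochondrial genes with a copy are uncertain.

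Levels per length split the 13 mitochondrially encoded genes into a high and a low class. The 7 genes outside the copy or only partly in it, mt-Nd1, mt-Nd2, mt-Co1, mt-Nd4, mt-Nd5, mt-Nd6 and mt-Cytb, had means of 2338 to 10383 CPM per kb. mt-Co1, the catalytic subunit of complex IV, was the highest, followed by mt-Cytb, the cytochrome b of complex III, at 6312 and mt-Nd1 at 6209 CPM per kb. The 6 genes within the copied stretch, mt-Co2, mt-Atp8, mt-Atp6, mt-Co3, mt-Nd3 and mt-Nd4l, had means of 2.81 to 93.1 CPM per kb. For mt-Atp8 this place was inferred, since it lies between mt-Co2 and mt-Atp6 and no annotated copy of it was aligned. The 7 genes therefore held 99.4% to 99.7% of the counts of the 13 in every mouse. mt-Nd4, of which the first 63.6% is copied, stayed in the high class at 2769 CPM per kb. mt-Co1, of which the last 31.8% is copied, did too.

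**Figure D1:**
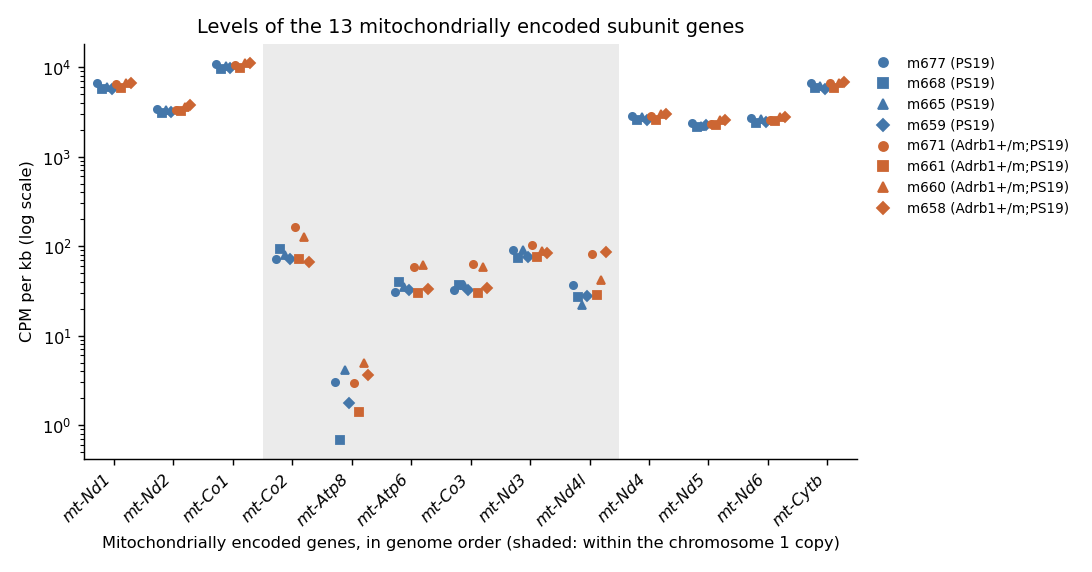
CPM per kb of the 13 mitochondrially encoded genes (log axis) in genome order, 1 point per mouse, with PS19 mice in blue and Adrb1+/m;PS19 mice in orange. The 6 genes within the stretch copied on chromosome 1 (shaded) have means of 2.81 to 93.1 CPM per kb, and the other 7 have means of 2338 to 10383.

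Among the 94 members tested, 4 passed, Ndufa12 and mt-Nd4l with higher and Atp5k and Ndufa3 with lower expression in Adrb1+/m;PS19 mice. Over all 17195 genes tested, 2.80% passed, 1.42% higher and 1.37% lower. DESeq2 called the same 4 members, against 1.65% of its 33611 genes. No member had CPM values that did not overlap between the genotypes, against 2.02% of all genes. The members left untested were Cox7b2 and Cox8b, with few counts, and Cox8c and a second row named Atp5o, with 0 counts in all 8 mice, which allows up to 0.0211 CPM.

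**Figure D2:**
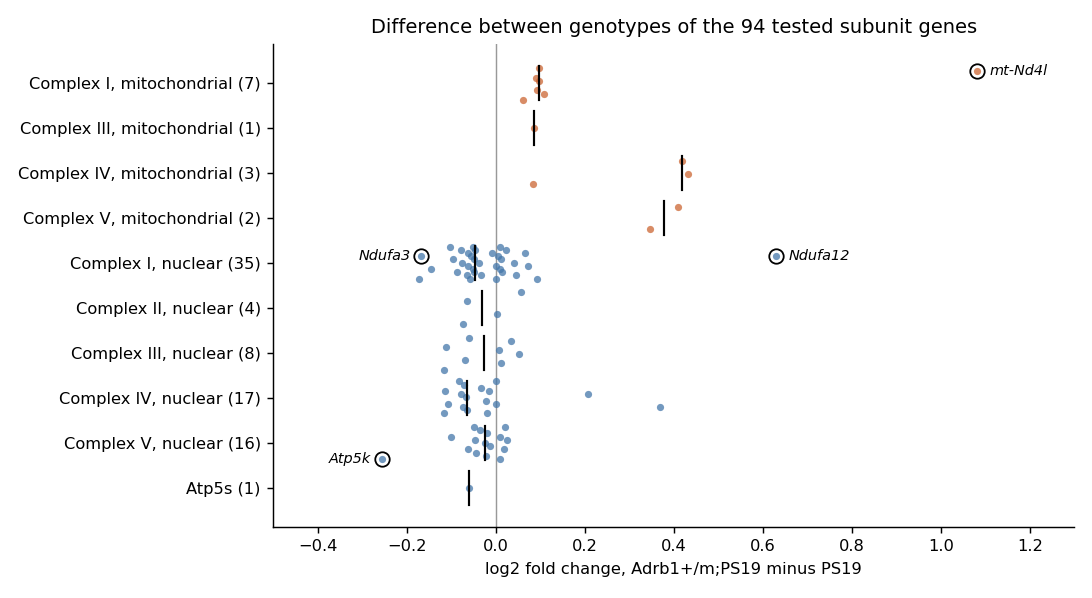
Log2 fold change of each of the 94 tested members (1 point per gene), by complex and genome, with the number of genes in parentheses, black lines for medians and black circles for the 4 members with an unadjusted p under 0.05. The 13 mitochondrially encoded genes lie right of 0, and 53 of the 81 nuclear genes lie left of it.

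All 13 mitochondrially encoded genes had a positive log2 fold change, with a median of 0.10, and only mt-Nd4l passed. Above 0 were 50.2% of all genes tested. The 7 genes of the high class lay between 0.06 and 0.11. They were measured in the same libraries, and all but mt-Nd6 are encoded on the same strand, so their common sign is not 7 separate observations. mt-Co1 was at 16636, 14630, 15977 and 15077 CPM in PS19 mice and at 16528, 15066, 17161 and 17256 CPM in Adrb1+/m;PS19 mice. The genotypes overlapped, with m660 and m658 the highest and m668 the lowest (log2 fold change 0.08 ± 0.05, edgeR unadjusted p = 0.129). mt-Nd5, a proton-pumping subunit of complex I, was at 4300, 3952, 4051 and 4119 CPM in PS19 mice and at 4198, 4098, 4666 and 4727 CPM in Adrb1+/m;PS19 mice. Its difference was 0.11 ± 0.05 (edgeR unadjusted p = 0.0576), and again m660 and m658 were the highest, while m671 and m661 lay within the range of the PS19 mice. mt-Cytb was at 7619, 6761, 7073 and 6570 CPM in PS19 mice and at 7627, 6736, 7661 and 7725 CPM in Adrb1+/m;PS19 mice, a difference of 0.09 ± 0.05.

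The remaining genes of the high class belong to complex I and followed the same mice. mt-Nd1 was at 5388 to 6327 CPM in PS19 mice and at 5607 to 6384 CPM in Adrb1+/m;PS19 mice (0.10 ± 0.06). mt-Nd2 was at 3211 to 3522 and 3324 to 3901 CPM (0.10 ± 0.05), and mt-Nd4 was at 3497 to 3970 and 3498 to 4155 CPM (0.09 ± 0.06). mt-Nd6, which is encoded on the other strand and whose end overlaps that of mt-Nd5, had the smallest difference of the 13, 0.06 ± 0.05, with 1226 to 1398 and 1295 to 1440 CPM. In all 4 of these genes m658 was the highest of the 8 mice.

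Without m661 10 of the 13 mitochondrially encoded genes passed, while 3.86% of all genes did. Without m677 6 of them passed, while 3.09% of all genes did. With all 8 mice the count was 1, so the number of mitochondrially encoded genes that pass depended on single mice of either genotype.

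Most genes within the copy varied far more between mice. mt-Nd4l, a small membrane subunit of complex I, was at 10.8, 7.94, 6.47 and 8.13 CPM in PS19 mice and at 24.3, 8.43, 12.3 and 25.6 CPM in Adrb1+/m;PS19 mice. Thus m671 and m658 lay far above every PS19 mouse, m660 lay slightly above them, and m661 lay among them. The log2 fold change was 1.08 ± 0.30 (edgeR unadjusted p = 0.00274, adjusted p = 0.9996). It was 0.89 without m671 and 0.84 without m658, and passed with any single mouse left out. Gm10222, its copy, had 4.53, 2.62, 3.78 and 3.01 CPM in PS19 mice and 5.10, 2.49, 9.46 and 3.34 CPM in Adrb1+/m;PS19 mice, so that m660 was the highest, m671 lay slightly above every PS19 mouse, and m658 lay among them. With the counts of the copies added to their genes, the difference of mt-Nd4l was 0.94 ± 0.25 (edgeR unadjusted p = 0.00197).

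mt-Co2, mt-Atp6 and mt-Co3 showed another pair of mice. mt-Co2, which holds the copper site that takes electrons from cytochrome c, was at 49.0, 64.1, 54.4 and 49.3 CPM in PS19 mice and at 111, 48.9, 87.1 and 45.4 CPM in Adrb1+/m;PS19 mice. mt-Atp6, the subunit a of the proton channel of ATP synthase, was at 21.1, 26.9, 23.6 and 21.8 CPM in PS19 mice and at 39.8, 20.1, 42.0 and 22.4 CPM in Adrb1+/m;PS19 mice. mt-Co3 was at 25.5, 29.0, 28.8 and 25.5 CPM and at 49.4, 23.3, 46.2 and 27.0 CPM. In all 3 genes m671 and m660 were the highest mice, and m661 and m658 did not exceed the highest PS19 mouse. Their log2 fold changes of 0.41 to 0.43 did not pass (edgeR unadjusted p = 0.0504 to 0.0776). Leaving out 1 mouse moved them to 0.16 (without m671) to 0.60 (without m658) for mt-Co2, 0.24 (without m671) to 0.59 (without m661) for mt-Co3 and 0.23 (without m660) to 0.57 (without m661) for mt-Atp6. All 3 passed without m661 or without m658, and mt-Atp6 also did without m668.

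The chromosome 1 copies of mt-Co2, mt-Atp6 and mt-Co3 were high in the same mice. Gm10925, the copy of mt-Atp6, was at 26.8 to 33.8 CPM in PS19 mice and at 87.8, 28.5, 54.4 and 29.5 CPM in Adrb1+/m;PS19 mice (0.73 ± 0.28, edgeR unadjusted p = 0.0201). Gm28437, the copy of mt-Co3, was at 16.5 to 18.1 CPM in PS19 mice and at 38.5, 15.6, 30.1 and 16.6 CPM in Adrb1+/m;PS19 mice (0.54 ± 0.23, edgeR unadjusted p = 0.0353). Gm28661, the copy of mt-Co2, was likewise the highest in m671 and m660, at 111 and 103 CPM, followed by PS19 mouse m668 at 77.7 CPM. Since gene and copy share nearly all bases, their counts are not independent measurements. With gene and copy added, mt-Atp6 and mt-Co3 also passed (0.60 ± 0.24 and 0.47 ± 0.20, edgeR unadjusted p = 0.0250 and 0.0381).

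**Figure D3:**
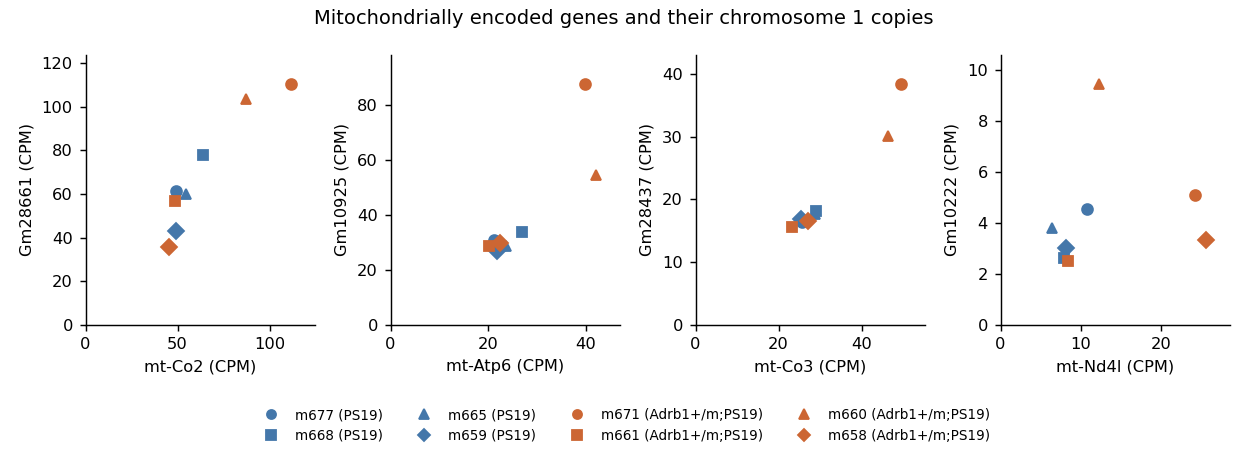
CPM of 4 mitochondrially encoded genes (horizontal axes) against their chromosome 1 copies (vertical axes), 1 point per mouse, PS19 in blue and Adrb1+/m;PS19 in orange. m671 and m660 stand apart for mt-Co2, mt-Atp6 and mt-Co3, whereas for mt-Nd4l the highest mice are m671 and m658.

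mt-Nd3 did not share these swings, with 25.5 to 31.2 CPM in PS19 mice and 26.2 to 35.8 CPM in Adrb1+/m;PS19 mice (0.09 ± 0.10). Its copy Gm28438 differs from it by T3C, counted from the first base of the gene, and had 2.28 to 3.90 CPM in the 8 mice. mt-Atp8 shares its last 43 bases, 21.1% of its length, with mt-Atp6 and had only 2 to 18 counts per mouse. Its log2 fold change of 0.35 ± 0.50 was therefore poorly determined.

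Ndufa12, an accessory subunit of complex I, had the highest fold change of the nuclear members. It was at 33.5, 31.8, 32.2 and 31.5 CPM in PS19 mice and at 58.4, 51.2, 61.5 and 28.5 CPM in Adrb1+/m;PS19 mice. m671, m661 and m660 were thus above every PS19 mouse, and m658 was below every one. The means were 32.2 ± 0.889 and 49.9 ± 14.9 CPM (SD, n = 4), with a log2 fold change of 0.63 ± 0.17 (edgeR unadjusted p = 0.00269, adjusted p = 0.9996). Without m658 it was 0.82 (edgeR adjusted p = 0.00150 over all genes).

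Gm15920 went the other way in the same mice. It was at 24.4, 25.8, 25.3 and 24.0 CPM in PS19 mice and at 8.34, 13.8, 10.6 and 25.6 CPM in Adrb1+/m;PS19 mice (-0.77 ± 0.24, edgeR unadjusted p = 0.00732). The sum of gene and pseudogene was 55.5 to 57.9 CPM in PS19 mice and 66.8, 65.0, 72.1 and 54.2 CPM in Adrb1+/m;PS19 mice. Across the 8 mice the CV was 33.1% for Ndufa12, 37.9% for Gm15920 and 10.4% for their sum. Fitted as 1 gene, the sum had a log2 fold change of 0.18 ± 0.08 (edgeR unadjusted p = 0.0374), against 0.63 for Ndufa12 alone.

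**Figure D4:**
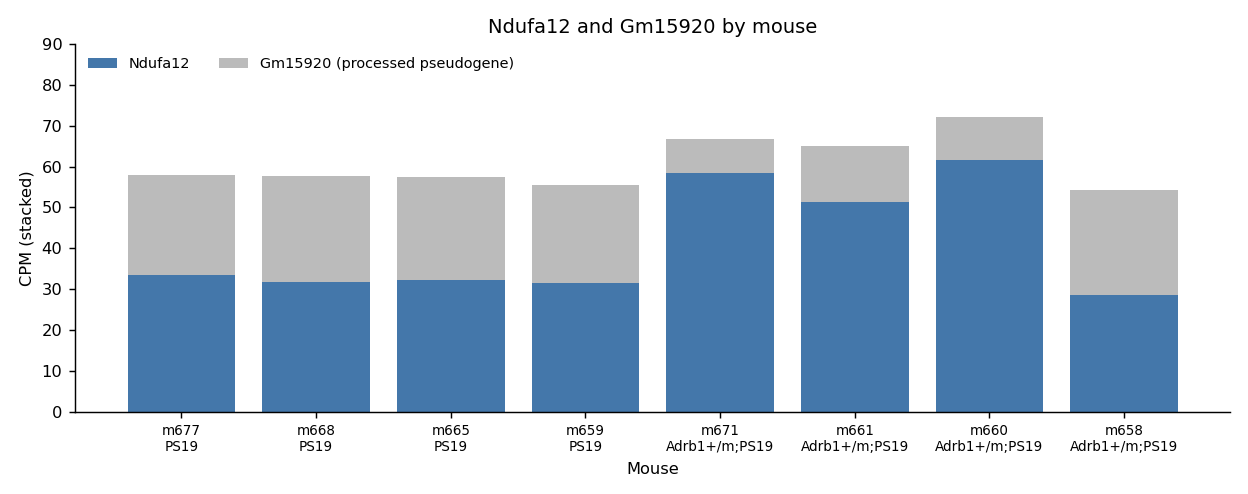
CPM of Ndufa12 (blue) and of its processed pseudogene Gm15920 (grey), stacked, in each mouse. In m671, m661 and m660 the gene is at 51.2 to 61.5 CPM and the pseudogene at 8.34 to 13.8, whereas m658 resembles the PS19 mice.

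The 3 other pairs with at least 800 pseudogene counts were Atp5g1 with Gm10039, Atp5h with Gm10250 and Atp5l with Gm10221. Atp5g1 was at 63.8 to 90.6 CPM, Atp5h at 139 to 152 CPM and Atp5l at 82.1 to 94.3 CPM in the 8 mice, and none of these genes or pseudogenes passed. Around Ndufa12, 10 other genes within 500000 bases were tested, and 1 of them passed, Gm3571 at -0.70, while 2.80% of all genes tested did. Whether reads of the gene were counted to the pseudogene, or the reverse, was not tested.

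Atp5k, the subunit e that helps ATP synthase form dimers, fell in Adrb1+/m;PS19 mice by 0.26 ± 0.10 on the log2 scale (edgeR unadjusted p = 0.0189, adjusted p = 0.9996). It was at 42.6, 49.9, 47.8 and 42.0 CPM in PS19 mice and at 43.1, 42.5, 32.6 and 34.3 CPM in Adrb1+/m;PS19 mice. Only m660 and m658 lay below all PS19 mice, and the call was lost without either of them or without m668. Ndufa3, an accessory subunit of the membrane arm of complex I, fell by 0.17 ± 0.07 on the log2 scale (edgeR unadjusted p = 0.0402, adjusted p = 0.9996). It was at 47.4, 52.7, 52.1 and 48.7 CPM in PS19 mice and at 47.1, 48.9, 43.7 and 39.2 CPM in Adrb1+/m;PS19 mice, with m658 the lowest, and leaving out any of m668, m665, m660 and m658 lost the call. Both genes are short, with 616 and 1022 exonic bases.

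The nuclear members as a group differed little. Their median log2 fold change was -0.04, against 0.0005 for all genes tested, with 28 above and 53 below 0. It was -0.07 without m671, -0.0015 without m660 and -0.0046 without m658. The median size of the difference, without its sign, was 0.05, against 0.07 for all genes, and their median SE was 0.07, against 0.11. In complex I 13 of 35 were above 0, in complex II 2 of 4, in complex III 4 of 8, in complex IV 4 of 17 and in complex V 5 of 16. Atp5s, counted with no complex, was at -0.06 ± 0.10. Of the nuclear core subunits of complex I, which carry its flavin and iron-sulfur clusters, 6 of 7 were above 0 and none passed. Ndufs1 had the largest of these differences, at 116 to 136 CPM in PS19 mice and 126 to 138 CPM in Adrb1+/m;PS19 mice (0.09 ± 0.06). Of the accessory subunits 7 of 28 were above 0.

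Complex II is the entry point of electrons from succinate. Sdha, its flavoprotein, had the highest level per length at 93.5 CPM per kb, and the membrane anchor Sdhc had the lowest at 21.0. Sdha was at 376 to 394 CPM in PS19 mice and at 374 to 412 CPM in Adrb1+/m;PS19 mice. Among the nuclear subunits of complex III the highest was Uqcr10, at 142 CPM per kb, and the lowest was the core protein Uqcrc2, at 53.5. Among those of complex I these were Ndufs5, at 91.7, and Ndufb2, at 3.23 CPM per kb. Levels per length of subunits of 1 complex thus spread widely, and exonic length includes all annotated transcripts of a gene.

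The 2 highest nuclear subunits of complex V belong to its catalytic head. Atp5b, the beta subunit that forms ATP, was at 1035 to 1071 CPM in PS19 mice and at 1028 to 1097 CPM in Adrb1+/m;PS19 mice, and at 251 CPM per kb it was the highest of its nuclear subunits. Atp5a1, the alpha subunit, was close to it at 250 CPM per kb. The 5 head subunits had a median log2 fold change of -0.01, and the 11 other subunits tested had one of -0.04. The lowest level per length of a nuclear subunit of the complex was that of Atp5l, at 13.8 CPM per kb. The c-ring, through which protons pass, is encoded by Atp5g1, Atp5g2 and Atp5g3. Atp5g3 was the highest, at a median of 4.25 times the level per length of Atp5g1 and 2.07 times that of Atp5g2. These ratios depend on the exonic lengths, which were 4912 bases for Atp5g1, 1675 for Atp5g2 and 2181 for Atp5g3. Without division by length, Atp5g3 had a mean of 149 CPM over all mice, Atp5g1 76.4 and Atp5g2 54.8. Atp5g3 was still the highest, but Atp5g1 then lay above Atp5g2. The pseudogene Gm10039 took 19.8% of the counts of Atp5g1 and itself. The log2 fold changes of Atp5g1, Atp5g2 and Atp5g3 were -0.05 ± 0.09, -0.03 ± 0.06 and -0.04 ± 0.08.

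In complex IV the isoforms typical of brain and most other tissues outnumbered the alternative ones. Cox8a, at 582 CPM per kb, was the highest nuclear member, followed by Cox6a1, at 422, and Cox4i1, at 264. Cox4i1 exceeded the oxygen-responsive isoform Cox4i2 by a median of 137 times per length over the 8 mice, with a range of 96.9 to 186. Cox6a1 exceeded the muscle isoform Cox6a2 39.6 times, and Cox7a2 exceeded the muscle isoform Cox7a1 44.3 times. Cox6b1 exceeded the testis isoform Cox6b2 129 times, and Cox8a exceeded Cox8b 540 times. Cox6b2, at 1.43 CPM per kb, was the lowest tested nuclear member of all complexes, and Cox7b2, the testis partner of Cox7b, which was at 99.1 CPM per kb, had 0 to 11 counts per mouse. None of the tested genes among them passed, with log2 fold changes of -0.12 to 0.37.

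Ndufa4, once counted with complex I and now placed in complex IV, was at 156 to 203 CPM. Its paralog Ndufa4l2, a hypoxia-responsive gene, was at 2.88, 2.90, 2.79 and 0.542 CPM in PS19 mice and at 1.92, 2.25, 2.02 and 2.72 CPM in Adrb1+/m;PS19 mice. PS19 mouse m659 therefore stood far below the other 7. The summed level of 7 pericyte markers was also the lowest in m659, at 190 CPM against 196 to 234 CPM in the other mice, and its part in the low value was not tested.

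The summed levels overlapped between the genotypes. The 13 mitochondrially encoded genes made up 4.42%, 3.85%, 4.15% and 3.90% of the counts of the PS19 mice and 4.31%, 3.99%, 4.58% and 4.56% of those of the Adrb1+/m;PS19 mice. The means were 4.08% ± 0.263 and 4.36% ± 0.274 (SD, n = 4). The 85 nuclear genes made up 0.974%, 0.946%, 0.961% and 0.933% in PS19 mice and 1.01%, 0.974%, 0.914% and 0.882% in Adrb1+/m;PS19 mice. Their means were 0.953% ± 0.0180 and 0.944% ± 0.0568, so that the SD was larger in Adrb1+/m;PS19 mice, where m671 was the highest and m658 and m660 were the lowest of all 8 mice.

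**Figure D5:**
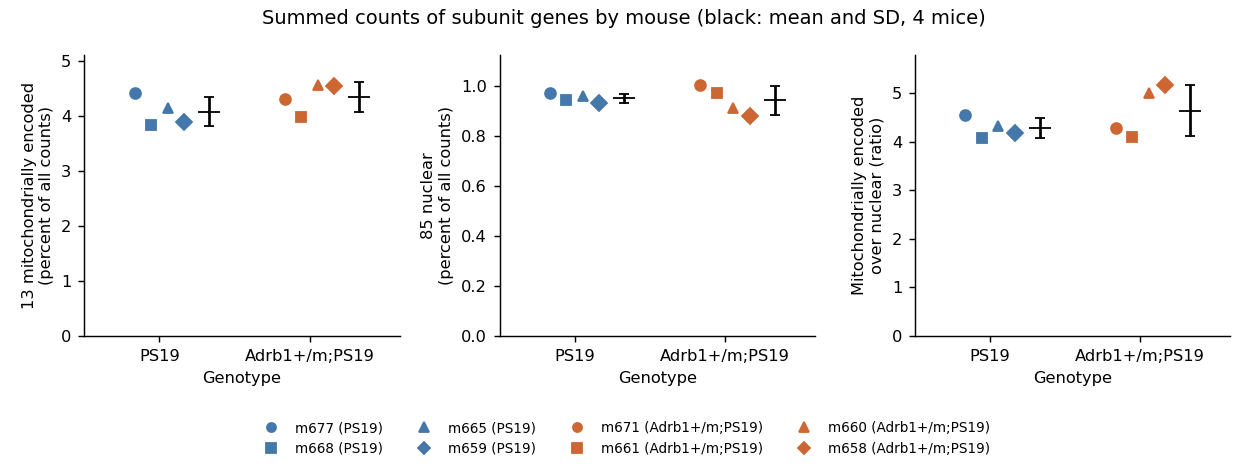
Summed counts of the mitochondrially encoded members and of the nuclear members as percent of all counts, and the ratio of both sums, for each mouse (black: mean and SD of 4 mice). m660 and m658 have the highest ratios, 5.01 and 5.17, and the other 6 mice lie between 4.07 and 4.54.

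The ratio of mitochondrially encoded to nuclear counts was 4.28 ± 0.203 in PS19 and 4.64 ± 0.530 in Adrb1+/m;PS19 mice (SD, n = 4). It was 5.01 and 5.17 in m660 and m658 and lay between 4.07 and 4.54 in all other mice, Adrb1+/m;PS19 mice m671 and m661 included. Gene by gene, m671 was above the gene's mean over the 8 mice in 73 of the 81 tested nuclear members and was the highest mouse in 37. m658 was above the mean in 5 and the lowest mouse in 40, and m660 was above it in 11 and the lowest in 23. The PS19 mice were above it in 39 to 54. Without m671 14 members passed, 11 of them lower, while 3.56% of all genes did. Without m660 only Ndufa12 and mt-Nd4l passed, while 2.47% of all genes did.

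Among short genes of any kind m671 was likewise the highest and m658 the lowest mouse, while m660 stood out less. Among 213 genes under 1000 exonic bases with a mean of at least 10 CPM, the median log2 deviation from the gene's mean was 0.12 in m671, -0.05 in m660 and -0.11 in m658. PS19 mouse m677 was at 0.07, and the remaining mice lay between -0.03 and 0.02. For the 18 nuclear members of that length the median was 0.10 in m671, -0.13 in m660 and -0.15 in m658. For the 19 members of 2000 to 4000 bases it was still 0.12, -0.08 and -0.11, whereas for the 2830 genes of that length it was 0.04, -0.02 and -0.02. For the 10 members of 4000 bases or more it was 0.07, -0.04 and -0.08, and PS19 mouse m665 was at 0.06. For the 6563 genes of that length it was -0.02, -0.0002 and 0.02. Log2 fold changes above 0 were found in 74 of the 213 genes under 1000 bases and in 2 of the 18 members. From 1000 to 2000 bases they were found in 336 of 832 genes and 9 of 29 members. From 2000 to 4000 bases they were found in 1347 of 2830 genes and 9 of 19 members, and above that in 3252 of 6563 genes and 6 of 10 members. The part of gene length in the members' values was not tested.

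Marker genes of cell types were followed beside these sums. All 8 markers of excitatory cortical neurons were detected. Of them 1 passed higher, Foxp2, and 3 lower, Slc17a7, Tbr1 and Neurod6, while 2.80% of all genes tested passed. The 8 markers summed to 1573 to 1867 CPM in PS19 and 1480 to 1655 CPM in Adrb1+/m;PS19 mice. Of the 7 interneuron markers 2 passed higher, Gad2 (0.24 ± 0.07, edgeR unadjusted p = 0.00325) and Slc32a1 (0.18 ± 0.07), and Vip passed lower (-0.19 ± 0.08). Gad1 (0.06 ± 0.05), Sst (-0.09 ± 0.08), Pvalb (0.02 ± 0.15) and Lhx6 (0.05 ± 0.08) did not pass. The 7 markers summed to 1054 to 1108 CPM in PS19 and 1065 to 1190 CPM in Adrb1+/m;PS19 mice. Gad2 did not overlap between the genotypes, and neither did 2.02% of all genes tested. The lowest excitatory sums were those of m660, at 1480 CPM, and m658, at 1554 CPM. Astrocyte markers summed to 1148 to 1972 CPM in PS19 and 1188 to 2011 CPM in Adrb1+/m;PS19 mice, and none of the 6 markers passed. The sums were 2011 CPM in m660 and 1855 CPM in m658, and as high in PS19 mice m659, at 1972 CPM, and m677, at 1855 CPM. Choroid plexus markers varied from 25.0 to 582 CPM between mice, with m658 the highest and PS19 mouse m668 next at 367 CPM. Striatal neuron markers varied from 944 to 2113 CPM, with m671 the highest, followed by PS19 mouse m668 at 1885 CPM and by m658 at 1765 CPM. The part of these cells in the members' values was not tested.

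Other genes of the pathway, from lists written for this purpose, gave 1 gene that passed, while 2.80% of all genes tested did. Of the 48 assembly factors tested, 14 were above 0 and Sdhaf2, which attaches flavin to Sdha, fell by 0.17 ± 0.07 on the log2 scale (edgeR unadjusted p = 0.0253). It was at 34.4, 37.6, 35.4 and 36.3 CPM in PS19 mice and at 34.3, 29.8, 32.7 and 31.1 CPM in Adrb1+/m;PS19 mice, and leaving out any of m668, m659, m661 and m658 lost the call. These values did not overlap between the genotypes, though only narrowly, and neither did those of 2.02% of all genes tested. None of the 19 other carriers and subunits, such as Cycs, Cyc1 and Ndufab1, passed, nor did any of the 77 mitochondrial ribosomal proteins. The same held for the 31 genes of mitochondrial DNA transcription, replication and RNA handling, the 13 regulators of mitochondrial genes, the 17 genes of pyruvate dehydrogenase and the citrate cycle and the 16 carriers and import genes. The medians of these 7 lists lay between -0.03 and 0.04.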

How the data were processed

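Cortical RNA of 8 mice was sequenced in pairs of reads, and the groups were taken from the genotype labels. The authors aligned reads to GRCm38 with HISAT2 2.0.5, counted them per gene with featureCounts 1.5.0-p3 and deposited raw counts without normalization. Their notes also name DESeq2 1.20.0. From the deposited counts, edgeR 4.0.16 in R 4.3.3 (filterByExpr, TMM, glmQLFit, glmQLFTest, 2-sided, no covariates) was fitted over 17195 genes, with Benjamini-Hochberg adjustment over all of them. The SE is the log2 fold change divided by the square root of F. A threshold of 0.05 on the unadjusted p followed the study. On counts simulated for this comparison with 199 of 16942 genes changed 2-fold, 99.5% were recovered unadjusted, 89.9% adjusted, and 4.8% of unchanged genes passed. The simulation used the trended dispersion and separate noise for each gene and mouse. Its rates therefore do not apply to differences as small as those of most members or to shifts that genes share within a mouse. Named genes were the mitochondrially encoded genes, the members that passed, isoform pairs, the highest and lowest member per length of each complex, and members of related lists that passed. Ndufs1, Atp5a1, Cycs, Cyc1, Ndufab1, Atp5h, Gm3571 and the pseudogenes were added after their values were seen. Members and lists were chosen with earlier results of these data known. CPM per kb uses the exonic length in the table, and log2 deviations add 0.5 to the CPM. Sequences and coding parts came from GENCODE M21, in which 98 of 98 members were found, 92 with the coordinates of the count table, and pseudogenes were matched with BLAST. Alternatives were DESeq2 1.42.0, limma-voom (limma 3.58.1), DESeq2 size factors, scaling without mitochondrial genes, no filter, only genes that reached 10 counts in all mice, a fit to protein-coding genes, each mouse left out and, chosen after seeing the data, near-identical copies added. At 14653222 to 21223754 counts per mouse, genes with few counts such as mt-Atp8 have wide errors. The labels do not say whether mice came from separate litters.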

Additional observations from a re-analysis of the deposited data

Results flagged for a closer look

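In 38 groups of 4 mice, taken over the genes that are mitochondrially encoded or passed the test and over the summed shares, 1 mouse stood apart from its group. mt-Cytb was at 6736 CPM in Adrb1+/m;PS19 mouse m661, while the other 3 mice of that genotype lay between 7627 and 7725 CPM. The gap was 0.902 of the range of the group, above Dixon's limit for 4 samples, and about 1 in 20 groups exceeds it by chance. The value of m661 lies within the 6570 to 7619 CPM of the PS19 mice.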

How the results depend on the processing

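The 4 members that passed also did so under DESeq2, limma-voom, DESeq2 size factors, normalization without mitochondrially encoded genes, a floor of 10 counts per mouse and a fit to protein-coding genes. Without the filter 13 members passed, 9 higher and 4 lower, among 1366 genes, and 5 members and 66 of 33614 genes passed after adjustment. The adjusted p was then 5.49e-14 for mt-Nd4l, 1.34e-11 for Ndufa12, 4.75e-06 for mt-Co2, 0.00156 for mt-Co3 and 0.00571 for mt-Atp6, with log2 fold changes close to those with the filter. In every other fit to all mice no gene passed after adjustment, including DESeq2 on 33611 genes without that filter. With the filter the adjusted p was 0.9996 for each of these 5 members, and their CPM values overlapped between the genotypes. Why the p-values fell without it was not tested. With near-identical copies added 6 passed, 4 of them higher. Leaving out 1 mouse at a time gave 2 to 14 members, 2 to 11 higher and 0 to 11 lower, among 425 to 663 genes: 14 without m671, 14 without m661, 9 without m677 and 2 without m660. Without m658 5 passed, all higher. The cause was not tested. The medians ranged from -0.07 to -0.0015 for nuclear and from 0.08 to 0.14 for mitochondrially encoded members. The mean ratio of mitochondrially encoded to nuclear counts ranged from 4.19 to 4.35 in PS19 and from 4.46 to 4.82 in Adrb1+/m;PS19 mice. Dropping 1 of 4 values can move a group mean only by a part of its SD, so these ranges do not test the means. Mitochondrially encoded genes and the 4 members that passed kept their sign in all alternatives run.

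Some members near 0 or with few counts did not keep theirs. Cox4i1 was at -0.00025, -0.0012 and -0.00017 with DESeq2, limma-voom and DESeq2 size factors, and Ndufa4l2 was at 0.20 with limma-voom. Leaving out 1 mouse gave -0.22 to 0.011 for Cox6b2, -0.053 to 0.46 for Cox7a1, -0.36 to 0.10 for Ndufa4l2, -0.030 to 0.018 for Sdha, -0.045 to 0.030 for Cox4i1, -0.029 to 0.067 for Ndufb2, -0.093 to 0.030 for Atp5g3, -0.15 to 0.021 for Atp5g1 and -0.068 to 7.3e-06 for Atp5g2.

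No paired analysis was possible because mice are numbered singly in the labels and litters are not named. Counts that decide mt-Atp8, Cox7a1, Cox6b2, Cox4i2 and Ndufa4l2 are few, and no difference in them was detectable at this depth.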

Other observations

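The mitochondrial rRNAs, chosen after their values were seen, did not share the sign of the mitochondrial mRNAs. mt-Rnr1 was at 2961 to 3409 CPM in PS19 and 2880 to 3221 CPM in Adrb1+/m;PS19 mice (log2 fold change -0.06 ± 0.05), and mt-Rnr2 was at 4280 to 5077 and 4093 to 4565 CPM (-0.07 ± 0.06). Both rRNAs together made up 0.760% ± 0.0646 of counts in PS19 and 0.727% ± 0.0290 in Adrb1+/m;PS19 mice (SD, n = 4), and the genotypes overlapped. m660 and m658, the mice with the highest share of counts in mitochondrial mRNAs, were at 0.714% and 0.719%. Among the mitochondrial tRNAs tested only mt-Tn, the asparagine tRNA, passed, with lower counts (-0.23 ± 0.10, edgeR unadjusted p = 0.0471, adjusted p = 0.9996), while 2.80% of all genes tested passed. It was at 22.3 to 29.2 CPM in PS19 and 19.5 to 24.4 CPM in Adrb1+/m;PS19 mice, so the genotypes overlapped. The gene has 71 bases and the strand setting is not given, so its counts are uncertain.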
